A study of Mus musculus with 4 samples.

Results

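The genes followed here are 10 genes that set the balance of mitochondrial fusion and fission in neural stem cells: Opa1 itself, the outer membrane fusion GTPases Mfn1 and Mfn2, the Opa1-cleaving proteases Oma1 and Yme1l1, the fission dynamin Dnm1l, and its adaptors Fis1, Mff, Mief1 and Mief2. They were chosen by symbol, though with earlier results of these data known. Each was found once among the 55421 gene identifiers of the RNA-seq table. All 10 passed the filter on low values (at least 10 normalised reads in at least 2 libraries), as did 18547 genes in all.

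Mitochondria join and divide all the time. The mitofusins join the outer membranes of neighbouring organelles and Opa1 then joins the inner membranes and holds the cristae in shape, with its long and short forms set by the proteases Oma1 and Yme1l1. Division needs Drp1, the product of Dnm1l, which is drawn from the cytosol to the outer membrane by Mff, Mief1 (MiD51) and Mief2 (MiD49), while Fis1 is an outer membrane protein first linked to fission in yeast. Neural stem cells and their daughters are known to change the shape of their mitochondria as they commit to a neuronal fate.

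Bulk RNA was sequenced from YFP-positive cells that were sorted by flow cytometry and labelled as neural stem cells, with 2 WT and 2 Opa1 KO libraries. The WT mice carried the tamoxifen-inducible Nestin-CreERT2 driver and the Rosa26 stop-YFP reporter, and the Opa1 KO mice carried both of these with Opa1 flox/flox alleles. Mice of either sex on a C57BL/6 background were 6 to 10 weeks old when all, controls included, received oral tamoxifen for 5 days, and cells were then sorted from the subventricular zone. The time from tamoxifen to sorting is uncertain, since the sources give 30 days in one place and 10 days in another. Cre acts only in cells in which the Nestin driver is active, so YFP marks these cells together with their later progeny of any type, and YFP does not by itself report that both Opa1 alleles were lost. No label ties a library to an animal. Every p-value here is therefore set against the spread between these 4 samples, part or all of which may be technical. The question asked here was whether the other genes of fusion and fission differed when Opa1 was deleted.

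The libraries held 19985853 to 23237326 reads in genes. Of the genes that define the labelled cell type, the stem cell and astrocyte markers Sox2, Nes, Gfap, Slc1a3, Fabp7 and Hes5 were present in all 4 libraries and summed to 52450 and 49985 normalised reads in WT and to 65551 and 70385 in Opa1 KO. Most of this sum was Slc1a3, at 40290 and 40041 in WT and 54529 and 57420 in Opa1 KO (DESeq2 adjusted p = 0.0140), and of the other 5 only Hes5 had groups that did not overlap, higher in Opa1 KO. Markers of other cells were present as well. The summed level of 6 neuroblast markers ranged from 95542 to 111338 normalised reads in WT and from 69986 to 84332 in Opa1 KO, with 6 of 6 lower in both Opa1 KO libraries. The summed level of 5 pericyte markers ranged from 2354 to 2965 in WT and from 5937 to 6198 in Opa1 KO, with 5 of 5 higher in both. Oligodendrocyte markers (5 genes) summed to 15895 and 34446 in WT and to 45592 and 45926 in Opa1 KO. Of these, 4 of 5 were higher in both Opa1 KO libraries than in both WT libraries. Over all genes tested, 15.7% had both Opa1 KO libraries below both WT libraries and 15.2% had both above. Ependymal markers (4 genes) split the libraries by number rather than by genotype, at 3225 and 5008 in the libraries numbered 1 and 21022 and 19512 in those numbered 2, and microglial markers (4 genes) split them the other way, at 1330 and 1340 against 162 and 334. The 4 endothelial markers summed to 759 and 1082 in WT and to 867 and 2278 in Opa1 KO. The 4 cycling markers summed to 32935 and 22726 in WT and to 30116 and 17706 in Opa1 KO, lower in the library numbered 2 of both genotypes. The 4 mature neuron markers ranged from 1913 to 2337, with the glutamatergic marker Slc17a7 at 0.957 to 2.91. What these mixtures contributed to the values below was not tested, and in bulk RNA fewer cells of a type and less RNA per cell cannot be told apart.

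The stretches of DNA before the start sites of 3 of the genes are shown because these genes carry the main values below: Opa1, which differed between the genotypes, and Mief2 and Mfn1, which after Opa1 had the widest range over the 4 libraries. All are from RefSeq on build GRCm38.p6, on the plus strand, and end before the first annotated exon. Opa1 covers chr16:29579084-29579333, Mfn1 chr3:32529232-32529464 and Mief2 chr11:60728148-60728397. Capitals mark a match to a binding motif of NRF1 (Opa1), GABP (Mfn1) or SP1 (Mief2).
Opa1: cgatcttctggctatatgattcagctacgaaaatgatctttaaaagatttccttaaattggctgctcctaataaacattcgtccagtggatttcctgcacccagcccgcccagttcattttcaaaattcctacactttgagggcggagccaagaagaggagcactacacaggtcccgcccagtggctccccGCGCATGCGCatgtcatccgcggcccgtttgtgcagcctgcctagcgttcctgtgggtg
Mfn1: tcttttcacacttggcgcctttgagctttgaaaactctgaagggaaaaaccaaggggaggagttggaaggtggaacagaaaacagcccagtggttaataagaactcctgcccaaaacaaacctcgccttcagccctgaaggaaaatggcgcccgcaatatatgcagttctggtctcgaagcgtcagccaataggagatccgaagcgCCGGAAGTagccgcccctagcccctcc
Mief2: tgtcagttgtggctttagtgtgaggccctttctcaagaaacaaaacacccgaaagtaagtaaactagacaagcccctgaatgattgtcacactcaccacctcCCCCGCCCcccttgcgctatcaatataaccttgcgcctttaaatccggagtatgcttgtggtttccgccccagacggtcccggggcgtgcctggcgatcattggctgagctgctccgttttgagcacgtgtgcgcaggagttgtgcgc

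NRF1 and GABP are transcription factors known for driving nuclear genes that encode mitochondrial proteins, and SP1 is a general activator of promoters rich in G and C. In the 250 bases before the RefSeq start of 27025 genes, read on both strands, the NRF1 motif (GCGC, any 2 bases, GCGC) was present in 5.11%, and among the 10 genes it was present in Opa1 (59 to 50 bases before the start) and Oma1. The GABP motif CCGGAAGT was present in 2.92% of all promoters and in those of Mfn1, Fis1 and Mief1. The SP1 motif GGGCGGGG was present in 16.3% of all promoters and in those of Oma1, Yme1l1, Fis1, Mief1 and Mief2, with overlapping matches in Yme1l1. Neither the joint ATF4 and C/EBP motif TGATGNAA (3.53% of all promoters) nor the cAMP response element TGACGTCA (1.60%) was present in the 250 bases before any of the 10 genes. These are matches of letters only, and no binding was measured here.

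Opa1, the inner membrane fusion GTPase and the deleted gene, had 3039 and 2833 normalised reads in WT, against 837 and 739 in Opa1 KO. Both Opa1 KO libraries lay far below both WT libraries, each at 24.3 to 29.5% of a WT library. WT averaged 2936 ± 145 (SD, n = 2). Opa1 KO averaged 788 ± 69.2 (SD, n = 2), or 26.8% of the WT mean. On the log2(value + 1) scale the difference was -1.90 ± 0.13 (SE; 95% interval -2.25 to -1.55), which on the fold scale is 21.0 to 34.3% of the WT level. Opa1 had the smallest unadjusted p of all 18547 genes in limma (6.95e-05) and also in DESeq2 on the recovered reads, and 8 genes, itself included, had a log2 difference as low or lower. Across all genes its adjusted p was 0.998 in limma, which called 0 genes (0% of those tested), 666 having an unadjusted p under 0.05 (3.59%). In DESeq2, which called 64 of 15310 genes (0.418%), its adjusted p was 1.71e-25. The table gives 1 count per gene over all exons, and which exons were floxed was not stated in the sources read. Reads from cells that kept the gene and reads from undeleted exons of recombined cells therefore cannot be told apart.

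**Figure D1:**
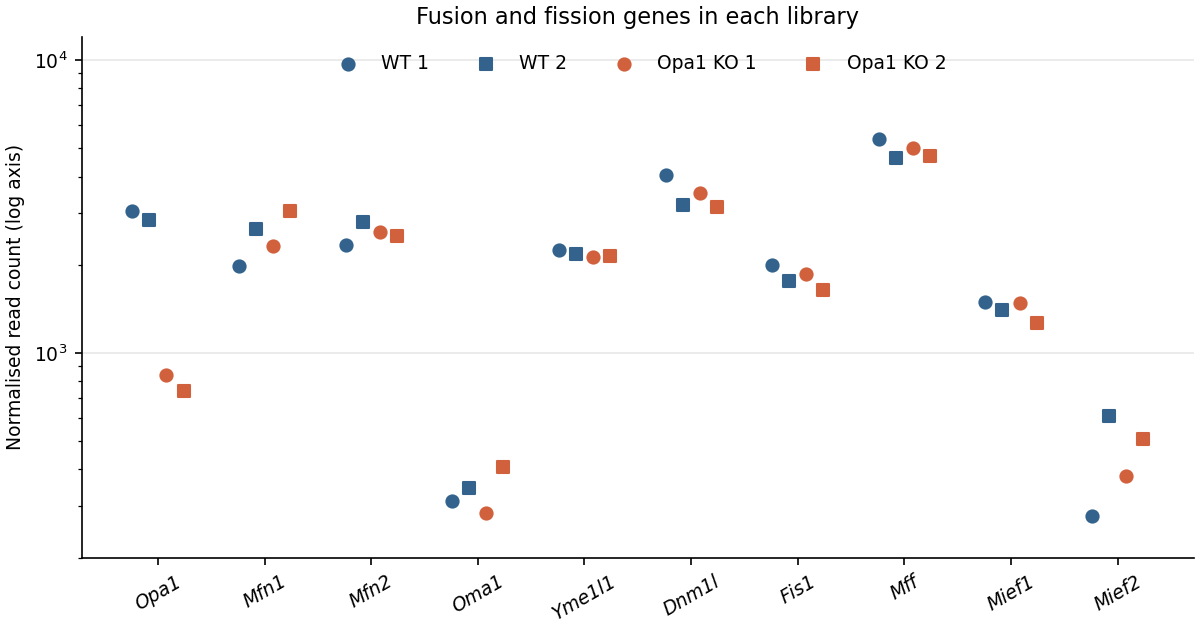
Normalised read count (log axis) of the 10 genes in the 4 libraries, with 1 point per library, WT in blue and Opa1 KO in orange. Opa1 stands at 2833 and 3039 in WT and at 739 and 837 in Opa1 KO, and apart from Yme1l1 the points of both genotypes overlap for the other genes.

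With genotype as the sole term, the outer membrane fusion GTPases did not differ between the genotypes beyond the spread of the libraries. Mfn1, which tethers neighbouring mitochondria, had 1986 and 2638 normalised reads in WT and 2312 and 3040 in Opa1 KO. The groups overlapped, with the first library of each genotype below the second. Its log2 difference was 0.21 ± 0.22 (SE), with a 95% interval of -0.38 to 0.80, which on the fold scale is 77.0 to 174% of the WT level. Mfn2, the paralogue that also links mitochondria to the endoplasmic reticulum, had 2329 and 2803 normalised reads in WT and 2579 and 2515 in Opa1 KO. Both Opa1 KO values lay between the WT values, and the log2 difference was -0.0047 with a 95% interval of -0.38 to 0.37.

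The proteases that cleave Opa1 were likewise not separated beyond their error. Yme1l1, the ATP-dependent protease of the inner membrane that cleaves Opa1 under normal conditions, was the steadiest of the 10 genes, at 2244 and 2167 normalised reads in WT and 2122 and 2133 in Opa1 KO. Both Opa1 KO libraries lay just below both WT libraries, but the log2 difference was only -0.05 (95% interval -0.35 to 0.24). Oma1, the zinc metalloprotease that cleaves Opa1 when the membrane potential is lost and that also cleaves Dele1, was much lower, at 311 and 346 in WT and 283 and 407 in Opa1 KO. Its Opa1 KO values enclosed the WT values, with a log2 difference of 0.05 and a 95% interval of -0.60 to 0.70.

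Dnm1l, which encodes the fission GTPase Drp1, had 4058 and 3185 normalised reads in WT and 3511 and 3150 in Opa1 KO. The WT mean was 3622 ± 617 (SD, n = 2) and the Opa1 KO mean was 3330 ± 255 (SD, n = 2), and the groups overlapped. The log2 difference was -0.11, with a 95% interval of -0.56 to 0.34. An antisense gene, Gm49521, shares 243 exon bases with Dnm1l and is listed at 4.79 to 10.7 normalised reads, and whether the counting used strand was not stated in the sources read.

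None of the fission adaptors was separated between the genotypes. Mff, the main receptor for Drp1 in mammals and the gene with the highest count of the 10, had 5391 and 4623 normalised reads in WT and 5001 and 4698 in Opa1 KO. The Opa1 KO values lay between the WT values. Fis1 had 1996 and 1759 in WT and 1861 and 1635 in Opa1 KO, and Mief1, the adaptor MiD51, had 1489 and 1402 in WT and 1481 and 1261 in Opa1 KO. In both genes the groups overlapped. The log2 differences of Mff, Fis1 and Mief1 were -0.04, -0.10 and -0.08, and their 95% intervals ran from -0.41 to 0.33, from -0.48 to 0.27 and from -0.46 to 0.30.

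Mief2, the adaptor MiD49, was the least certain of the 10 genes. It had 277 and 609 normalised reads in WT and 381 and 506 in Opa1 KO. The Opa1 KO values lay inside the WT range, whose ends differed by 2.20-fold. The log2 difference was 0.10 ± 0.45 (SE), with a 95% interval of -1.13 to 1.32, so even a level of 45.7% or 250.2% of WT lay within it.

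Counted over the 10 genes, 2 had groups that did not overlap, Opa1 and Yme1l1, both lower in Opa1 KO. Of all 18547 genes 15.7% had groups that did not overlap with Opa1 KO lower and 15.2% with Opa1 KO higher, so that 2 of 10 was close to the share over all genes. Apart from Opa1, 0 of the 9 genes were called by limma or by DESeq2. With genotype as the sole term, 0 of the 9 genes had an unadjusted p under 0.05 in limma. Their median log2 difference was -0.04 (3 higher, 6 lower), beside -0.01 over all genes tested. In 8 of these 9 genes the 95% interval excluded any level under 65.9% or over 174% of WT, and the exception was Mief2.

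**Figure D2:**
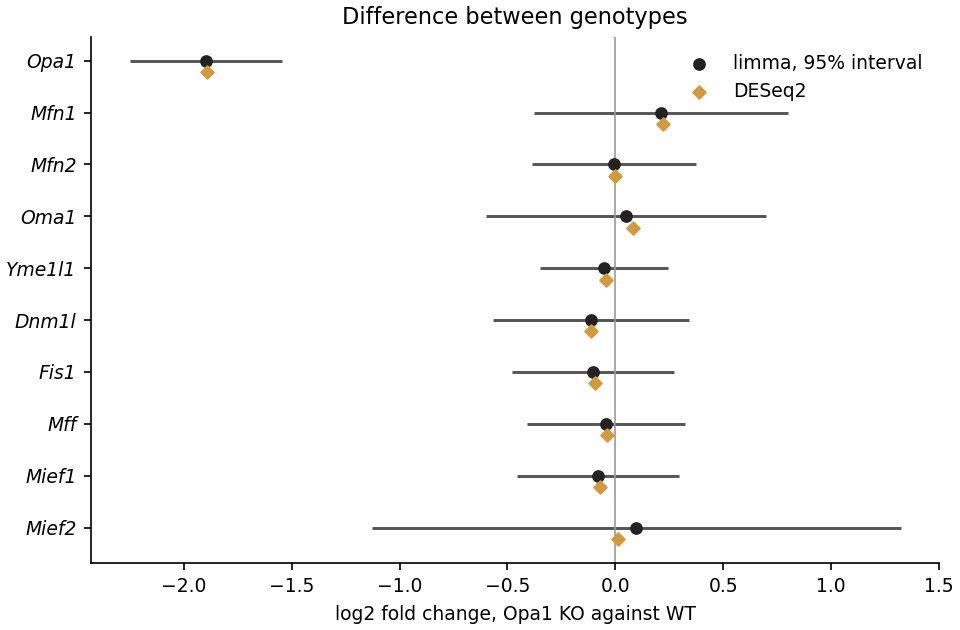
Log2 fold change of each of the 10 genes, Opa1 KO against WT, with the 95% interval from limma as a line and the DESeq2 estimate as a diamond. The interval of Opa1 runs from -2.25 to -1.55, and those of the other 9 genes include 0.

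Libraries of 1 genotype also differed from each other in several of these genes. Mfn1 was higher in the library numbered 2 than in that numbered 1 by 0.41 on the log2(value + 1) scale in WT (95% counting interval 0.33 to 0.49) and by 0.39 in Opa1 KO (0.32 to 0.47). Mief2 was higher in the library numbered 2 by 1.13 in WT (0.93 to 1.34) and by 0.41 in Opa1 KO (0.21 to 0.61). Dnm1l went the other way, lower by 0.35 (log2 difference -0.35, interval -0.42 to -0.28) in WT and with a difference of -0.16 (-0.23 to -0.09) in Opa1 KO. These counting intervals, exact binomial on the recovered reads, cover counting error only, and each excluded 0.

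Fis1 and Mff were also lower in the library numbered 2 of both genotypes beyond counting error. Mief1 was lower there in both, beyond counting error only in Opa1 KO (-0.23, interval -0.34 to -0.12). Oma1 was higher there in both, beyond counting error only in Opa1 KO (0.52, interval 0.30 to 0.75), and Mfn2 only in WT (0.27, interval 0.19 to 0.35). The sign of the gap was shared by both genotypes in 8 of the 10 genes, beside 72.8% of all genes tested. The mean gap was larger than the genotype difference in 8 of 10, beside 61.6% of all genes. The summed ependymal markers were several-fold higher and the microglial markers several-fold lower in the libraries numbered 2, as given above, and their part in the gaps of Mfn1, Mief2 and Dnm1l was not tested. Set against the same counting error, Opa1 KO and WT libraries of the same number also differed in all of the 9 genes but Yme1l1. Mfn1 was higher in Opa1 KO by 0.22 (counting interval 0.13 to 0.31) and 0.20 (0.13 to 0.28) in the libraries numbered 1 and 2, and the difference of Fis1 was -0.10 (-0.19 to -0.01) and -0.11 (-0.20 to -0.01). Mfn2 and Mief2 differed in opposite directions in the 2 numbers, each beyond counting error. Dnm1l and Mff differed only in the libraries numbered 1, both lower in Opa1 KO. In those numbered 2 only, Mief1 was lower and Oma1 higher in Opa1 KO. For Opa1 the gap was -0.10 in WT and -0.18 in Opa1 KO, small beside its genotype difference of -1.90.

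**Figure D3:**
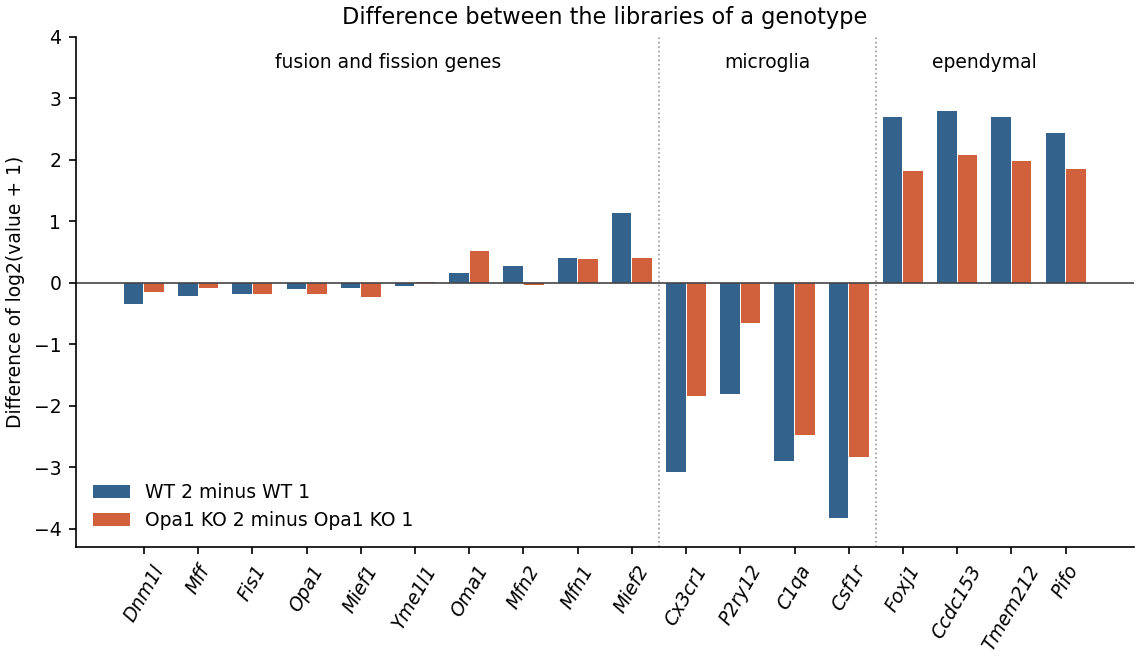
Difference of log2(value + 1) between the libraries numbered 2 and 1, in WT (blue bars) and in Opa1 KO (orange bars), for the 10 genes and for microglial and ependymal marker genes. Mfn1 and Mief2 sit above 0 in both genotypes and Dnm1l below 0. Most gaps of the marker genes are larger, but that of P2ry12 in Opa1 KO is -0.65, beside 1.13 for Mief2 in WT.

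Levels of different genes were compared per kb of annotated exon, summed over all transcripts of a gene, which takes no account of which transcripts these cells use. In WT the order by mean normalised reads per kb was Fis1 (1095), Dnm1l (696), Mff (513), Mfn2 (494), Mfn1 (378), Opa1 (373), Yme1l1 (275), Mief1 (178), Mief2 (163) and Oma1 (153). Neighbours whose libraries overlapped were Mff and Mfn2, Mfn1 and Opa1, Mief1 and Mief2, and Mief2 and Oma1. Per length, the fission genes Fis1 and Dnm1l thus stood above both mitofusins, and the adaptors Mief1 and Mief2 stood well below Mff. In Opa1 KO the other 9 genes kept this order, with Mfn2 and Mfn1 now overlapping as well, whereas Opa1 moved from place 6 to place 10. Its levels of 106 and 93.9 reads per kb lay below those of Oma1, at 132 and 190, without overlap.

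**Figure D4:**
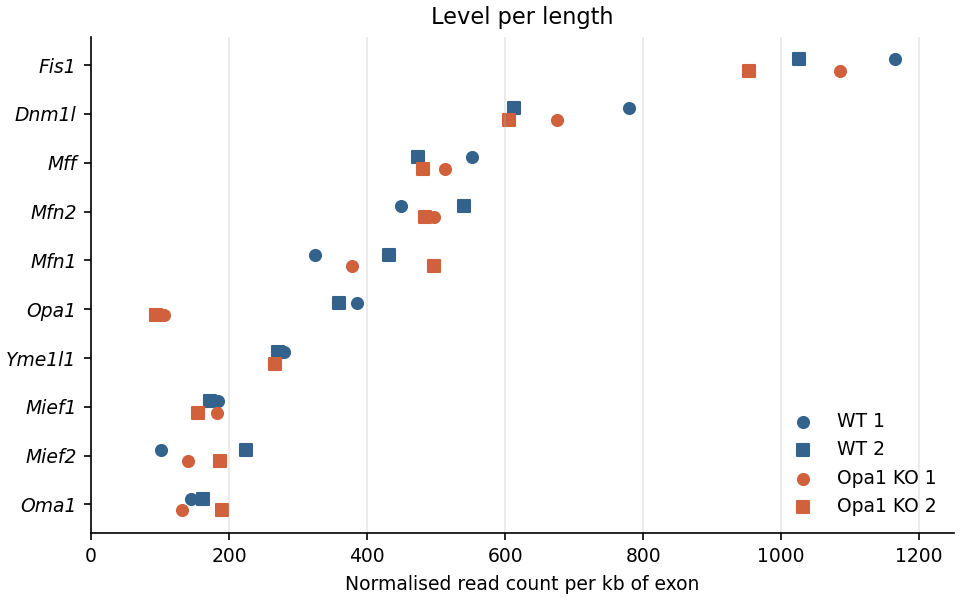
Normalised read count per kb of annotated exon for the 10 genes, ordered by the WT mean, with 1 point per library, WT in blue and Opa1 KO in orange. Opa1 stands at 360 and 386 in WT and at 93.9 and 106 in Opa1 KO, below the other 9 genes in Opa1 KO, which keep their order among themselves.

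Ratios of genes within 1 library do not depend on how libraries were scaled, and 6 were compared over the 4 libraries with an exact permutation test (two-sided), in which 2 libraries against 2 cannot give a p below 0.333. The ratio of Opa1 to its protease Yme1l1, per kb, was 1.38 and 1.33 in WT and 0.401 and 0.352 in Opa1 KO. The groups were far apart, with a log2 difference of -1.85 and the smallest exact p that the design allows (p = 0.333, adjusted p = 1 over the 6 ratios). The ratio of Mfn1 to Mfn2 was 0.724 and 0.799 in WT and 0.761 and 1.03 in Opa1 KO, and the groups overlapped. The ratio of Oma1 to Yme1l1 was 0.518 and 0.597 in WT and 0.498 and 0.713 in Opa1 KO, again with overlap. For fission against outer membrane fusion, the ratio of Dnm1l to Mfn2 was 1.74 and 1.13 in WT and 1.36 and 1.25 in Opa1 KO. These Opa1 KO ratios fell between the WT ratios. The ratio of Dnm1l to Mff was 1.41 and 1.29 in WT and 1.32 and 1.26 in Opa1 KO, and the ratio of Mief1 to Mief2 was 1.80 and 0.772 in WT and 1.30 and 0.834 in Opa1 KO. Both overlapped, and the 5 ratios without Opa1 had exact permutation p-values of 0.667 or 1 (adjusted p = 1).

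Beyond the 10 genes, 33 other genes of mitochondrial dynamics were followed, and 0 of 33 passed the adjusted threshold in limma or in DESeq2 in either direction. Their median log2 difference was -0.01, equal to that over all genes at this precision, with 15 higher and 18 lower. In 4 of them both Opa1 KO libraries lay above both WT libraries and in 6 below, shares to be read against the 15.2% and 15.7% over all genes. Of 7 further fusion factors 3 were higher and 4 lower, the smallest p belonging to Pld6, a mitochondrial phospholipase, at 36.8 and 47.6 normalised reads in WT and 46.8 and 64.1 in Opa1 KO. Miga2, a mitoguardin of the outer membrane, had 725 and 947 in WT and 899 and 905 in Opa1 KO.

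Of 10 further fission factors 6 were higher and 4 lower. Inf2, a formin that builds actin around the fission site, had 171 and 137 normalised reads in WT and 255 and 240 in Opa1 KO. Its groups did not overlap, and the log2 difference was 0.69 ± 0.22 (SE; limma unadjusted p = 0.0304, adjusted p = 0.998, DESeq2 adjusted p = 0.918). Spire1, an actin nucleator that acts with Inf2, had 3550 and 3545 in WT and 4143 and 3805 in Opa1 KO. Gdap1, an outer membrane protein tied to fission and to inherited neuropathy, had 3110 and 2620 in WT and 2580 and 2095 in Opa1 KO, without overlap and with a log2 difference of -0.30 (95% interval -0.75 to 0.16).

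Among 9 other genes of mitochondrial proteases and of the Oma1-Dele1 relay, 3 were higher and 6 lower. Eif2ak1, the kinase HRI that is switched on by cleaved Dele1, had 2070 and 1957 normalised reads in WT and 1734 and 1671 in Opa1 KO. Its groups did not overlap, but the 95% interval of the log2 difference ran from -0.55 to 0.07. Pmpca, a subunit of the processing peptidase of the matrix, had 3218 and 2958 in WT and 2835 and 2614 in Opa1 KO. Afg3l2, a subunit of the matrix-facing protease of the inner membrane, had 1339 and 1517 in WT and 1539 and 1583 in Opa1 KO.

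Of 7 genes of mitochondrial transport and tethering 3 were higher and 4 lower, and the smallest p was that of Trak2, an adaptor that couples mitochondria to motor proteins. It had 1048 and 1059 normalised reads in WT and 718 and 748 in Opa1 KO, with tight groups that did not overlap. The log2 difference was -0.52 ± 0.12 (SE; 95% interval -0.85 to -0.19), with an unadjusted p of 0.0108 in limma and an adjusted p of 0.998 in limma and 0.230 in DESeq2. DESeq2 run without the filter on low values, an alternative chosen after seeing the data, called 214 of 16312 genes (1.31%), and there its adjusted p was 0.00368. Armcx3, which binds the transport machinery, had 1051 and 911 in WT and 929 and 765 in Opa1 KO, with overlap, and Kif5b, a kinesin heavy chain, had 4797 and 4094 in WT and 3930 and 4009 in Opa1 KO, without overlap.

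**Figure D5:**
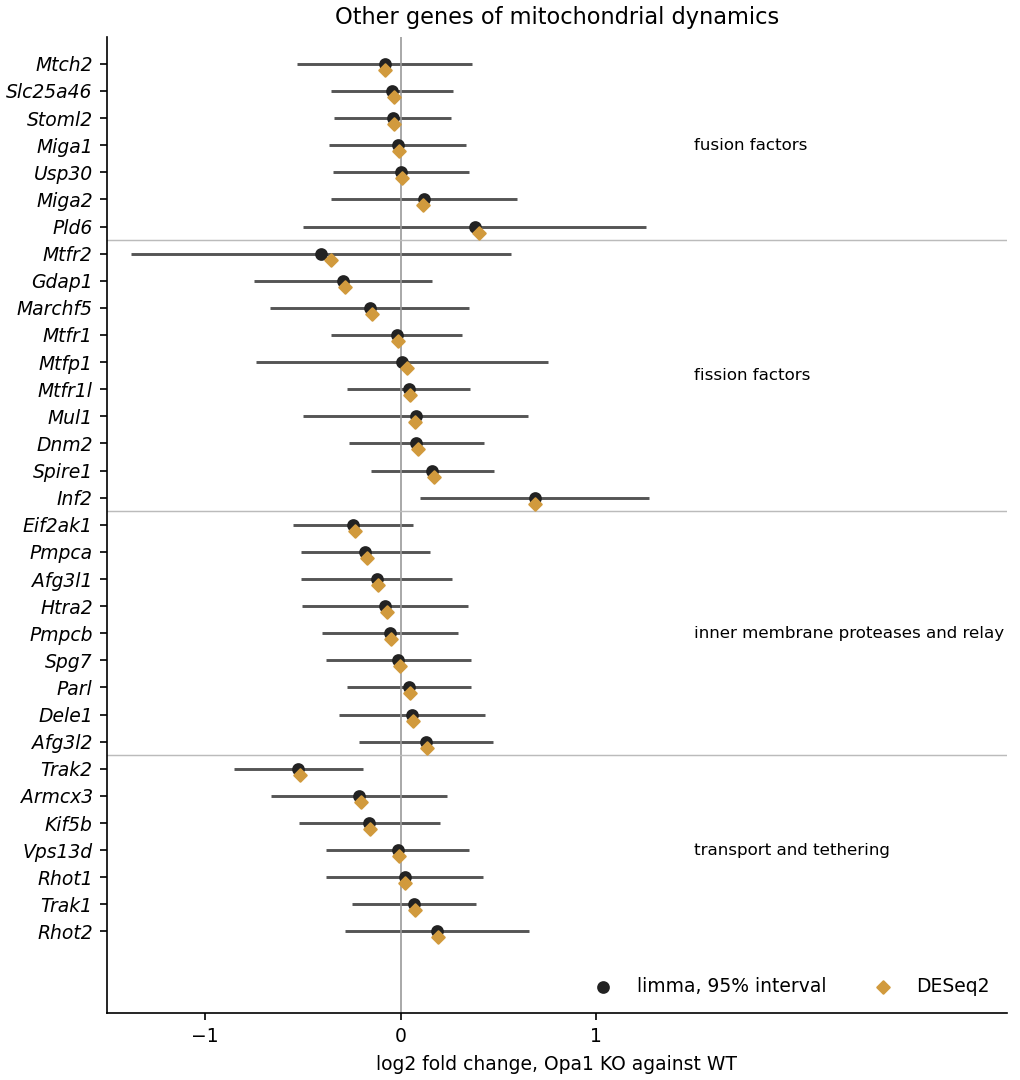
Log2 fold change, Opa1 KO against WT, of 33 other genes of mitochondrial dynamics in 4 lists, with the 95% interval from limma as a line and the DESeq2 estimate as a diamond. The intervals of Inf2 and Trak2 exclude 0 before adjustment, and those of the other 31 genes include it.

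Patterns over the 4 libraries were compared with that of Opa1 by the root mean square difference of centred log2(value + 1). Genes with no symbol, or with that of a predicted model (Gm number, Rik name or accession), were left out. The nearest of the remaining genes were Plxna4os1 (0.16), Chodl (0.16), Tmem130 (0.24), Serpinb2 (0.29) and Hs3st5 (0.31). They are named as a description over 4 libraries, with no test. Chodl, which encodes the membrane lectin chondrolectin, had 887 and 746 normalised reads in WT and 264 and 262 in Opa1 KO. Tmem130 had 351 and 296 in WT and 134 and 103 in Opa1 KO. Plxna4os1, Serpinb2 and Hs3st5 were low, at 12.6 to 52.5 normalised reads in WT and 2.87 to 17.4 in Opa1 KO. None of the other 9 fusion and fission genes was among them, as their log2 differences (-0.11 to 0.21, beside -1.90 for Opa1) already implied.

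Reads that could belong to another gene touched few of these values. In the transcripts used here Opa1, Mfn2, Oma1, Fis1 and Mief2 had no stretch of at least 100 bases at 95% identity or more to another gene. Yme1l1 shares 207 bases at 96.1% identity with the pseudogene Gm14897, which is listed at 0 in all libraries. Mief1 shares 213 exon bases with a gene on the same strand that is also listed at 0, and Mff shares 195 with C430014B12Rik on the other strand, at 3.87 to 10.7 normalised reads. Mfn1 holds a stretch of 138 to 176 bases found at 95% identity or more in many other genes, so a part of its reads is uncertain.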

How the data were processed

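Bulk RNA sequencing was measured in 4 libraries, grouped and numbered by their titles (2 WT, 2 Opa1 KO). Per the submitters' processing notes, reads were handled with HISAT2, SAMtools, featureCounts and DESeq2 on build mm10, with no version, annotation release or strand setting stated in the sources read. The deposited values are a normalised signal: the authors divided the reads of each gene by a size factor of the library. Dividing each column by its smallest step gave whole reads for 100% of values within 1e-06, with size factors of 1.03, 1.03, 0.919 and 1.04. The authors' own fold changes, p-values and enrichment tables were not used, nor were 5 further deposited files. Columns were matched to samples through the descriptions, which number the libraries differently.

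Of 55421 identifiers, 55154 matched a symbol in GENCODE vM21 and 22529 were at 0 in all libraries. Replicates differed by far more than counting noise. Genes that reached a value of 10 in 2 or more libraries were tested on log2(value + 1) with limma (version 3.58.1, trend, robust), genotype being the sole term, and Benjamini-Hochberg adjustment over all 18547 genes at 0.05. A fold change on this scale understates that of low genes. The raw counts foreseen were not what the table held, so edgeR 4.0.16 (quasi-likelihood), DESeq2 1.42.0 and limma-voom were run on the recovered reads as alternatives, beside other scalings, pseudocounts and filters, a replicate block and leaving out each library. In counts simulated for this comparison over 18547 genes, limma found 12% of the genes changed 2-fold and 59% of those changed 4-fold, calling 3 unchanged genes. For DESeq2 these figures were 13%, 71% and 18. The simulated libraries were drawn independently of each other, from a negative binomial distribution. They lacked the gaps that libraries of the same number share in the data, so these rates may not hold for this comparison. Where a list is described, its counts and median stand beside those of all genes. From the other lists, up to 3 genes with the smallest p were named, and the 5 genes nearest to Opa1 in pattern, predicted models left out. Sequence matches were searched with BLAST. The genes and lists were chosen with earlier results of these data known.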

Additional observations from a re-analysis of the deposited data

How the results depend on the processing

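Over 15 alternatives, limma with other scalings and pseudocounts (0.5 and 5), a filter of 50 in 2 libraries, edgeR, limma-voom and the leaving out of any library all called 0 genes (lowest and highest 0), against 0 in the fit reported. With no filter on low values limma called 2, DESeq2 called 64, and DESeq2 with no filter, chosen after seeing the data, called 214. At an unadjusted p under 0.05 limma had 666 genes, edgeR 700 and limma-voom 710. Opa1 was lower under all 15, with a log2 difference of -1.89 in DESeq2 (adjusted p = 1.71e-25), -1.90 in limma with no filter (adjusted p = 0.0285), -1.90 in DESeq2 with no filter (adjusted p = 2.59e-44) and -1.99 to -1.81 with a library left out. Its adjusted p in limma thus depended on the filter.

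The replicate block called 182 genes and gave Opa1 -1.90 (adjusted p = 0.000473), calling 0 of the other 9. The deviations of same-numbered libraries from their group means had a Pearson r of 0.718 across 18547 genes, which are not independent replicates, but the labels tie a number to no shared animal or day and there are only 2 pairs. What libraries of the same number share is unknown.

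Of 150 values of the 10 genes under an alternative 15 reversed, all near 0 or from a library left out. Mfn2 gave 0.0049 in limma-voom, 0.0048 with TMM factors and 0.048 by library size, Yme1l1 0.0013 and Mff 0.010 by library size, which moved the median of all genes by under 0.1. With a library left out the log2 difference ran from -0.14 to 0.13 for Mfn2, -0.21 to 0.31 for Oma1, -0.29 to 0.062 for Dnm1l, -0.15 to 0.068 for Mff, -0.20 to 0.036 for Mief1, -0.47 to 0.66 for Mief2 and -0.071 to 0.31 for Miga2. Mfn1 (0.01 to 0.42), Fis1 (-0.20 to -0.01), Yme1l1 (-0.077 to -0.027) and Opa1 kept their direction with any library left out. The log2 ratio of Oma1 to Yme1l1 ran from -0.16 to 0.36, that of Mief1 to Mief2 from -0.79 to 0.43 and that of Dnm1l to Mfn2 from -0.42 to 0.20. The cause of these moves beyond the smaller number of samples was not tested. A lone library was assumed to vary like the other group.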
